A study of Homo sapiens with 4 samples.

Results

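The genes of the AP-1 transcription factors were examined for RNA synthesis after acute loss of IWS1, a factor that travels with elongating RNA polymerase II. The members were taken by name: *FOS*, *FOSB*, *FOSL1* and *FOSL2* of the FOS family, *JUN*, *JUNB* and *JUND* of the JUN family, *ATF3*, and the small MAF genes *MAFF* and *MAFK*. Of these 10 genes, 9 were among the 10147 genes of the table, and the RNA synthesis of *FOSB* was not analysed here. The samples were genome-edited K562 cells, a human chronic myelogenous leukemia line. In all of them IWS1 carried an N-terminal dTAG, which lets the ligand dTAG7 send the protein for degradation, so the control cells carried the tag as well, and cells without it were not analysed here. The dIWS1 cells received 500 nM dTAG7 for 1 h and the control cells received the solvent DMSO for 1 h, with 2 libraries labelled for each group. RNA made during a pulse of 5 min with 500 µM 4-thiouridine (4sU) was isolated and sequenced (TT-seq).

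Before any result, a limit of the control group has to be given. The whole reads behind the deposited means could be recovered, and they came from 3 distinct library columns. The control column entered the means 2 times with equal values, so it was counted as 1 sample, and no spread between control libraries was available. The dIWS1 columns 1 and 2 differed from each other, and nothing ties them to replicate numbers. The control column held 29494381 reads in genes, dIWS1 column 1 held 20444452 and dIWS1 column 2 held 20661842. *IWS1* itself, whose protein rather than gene is the target of dTAG7, had 3684, 2334 and 2427 reads, a log2 ratio of -0.55 ± 0.15 (SE, limma-voom adjusted p = 0.000781), so its RNA does not check depletion of the protein. Of 15 markers of K562 cells and erythroid genes 13 were in the table, and of 15 markers of T cells, B cells, macrophages, fibroblasts and epithelial cells 1 was there, the macrophage gene *LYZ* with 60, 38 and 40 reads.

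AP-1 is a dimer of basic leucine zipper (bZIP) proteins. FOS proteins cannot pair with themselves and bind DNA as partners of JUN proteins, while JUN proteins can also pair with each other, and ATF3 and the small MAF proteins join other bZIP factors, the small MAFs lacking an activation domain of their own. Several of these genes are immediate early genes, which respond to signals within minutes without new protein synthesis, and their transcripts are short-lived. TT-seq reads their synthesis rather than the RNA already present.

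Most members are short genes. *JUN* (chromosome 1, 58780791 to 58784047, minus strand, GRCh38.p14), *JUNB* (chromosome 19, 12791486 to 12793315, plus strand) and *JUND* (chromosome 19, 18279694 to 18281622, minus strand) each consist of a single exon. *FOS* (chromosome 14, 75278828 to 75282230, plus strand) and *FOSL1* (chromosome 11, 65892049 to 65900545, minus strand) have 4 exons, as does *FOSL2* (chromosome 2, 28392858 to 28417317, plus strand). *MAFF* (chromosome 22, 38201994 to 38216511, plus strand) and *MAFK* (chromosome 7, 1530702 to 1543043, plus strand) have 3 exons. *ATF3* is the longest, with a RefSeq span of 55371 bp (chromosome 1, 212565407 to 212620777, plus strand), of which its canonical transcript covers 212608761 to 212620775. GENCODE places genes on the opposite strand over *JUNB* (*HOOK2*), *MAFF* (*PLA2G6*), *MAFK* (*TMEM184A*) and *FOSL2* (*FOSL2-AS1*), and a further lncRNA on the same strand over *FOSL2*. The authors counted read pairs by strand.

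The sequences just upstream of the transcription starts were searched for short motifs. RefSeq promoters (GRCh38.p14) were found for 8 of the 10 members, *FOSB* included, but not for *FOSL1* and *MAFK*. *FOSB* is outside the table, so it is not among the genes whose share is given beside the members. These members had 10 starts in all, with 2 each for *ATF3* and *MAFF*, and a gene was counted when any of its windows held the motif. The 250 bases before each start were searched on both strands for TGACG, the core of a cAMP response element. It was there in 7 of 8 members (*FOS*, *FOSB*, *FOSL2*, *JUN*, *JUNB*, *JUND* and *MAFF*), beside 36.7% of the 8021 genes of the table with such a window. The full palindrome TGACGTCA, which contains TGACG on each strand, was in 2 members (*JUND* and *MAFF*), beside 3.74% of genes. Its variant TGACATCA was in *JUN* and *ATF3*, beside 1.65% of genes. That variant is known from the *JUN* promoter, so the match in *JUN* was given by the choice of motif. The AP-1 site TGAGTCA was in none of the 10 windows of these 8 members, beside 3.72% of genes. The letters TATAAA on the coding strand were in 4 members (*FOS*, *FOSB*, *JUNB* and *ATF3*), beside 4.54% of genes. In *FOS*, *FOSB* and *JUNB* they start 33, 30 and 31 bases before the RefSeq start. In *ATF3* they start 230 bases before 1 of its 2 starts. Neither *ATF3* start is that of its canonical transcript, so the window before the canonical start was not searched. These are letter matches and no evidence of binding.

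Printed here are the last 110 bases before the RefSeq start of 5 members, which hold some of the matches just named. They run 5′ to 3′ on the coding strand, and capitals mark TGACG (or its reverse complement), TGACGTCA, TGACATCA or TATAAA.
FOS, chr14:75278718-75278827, plus strand: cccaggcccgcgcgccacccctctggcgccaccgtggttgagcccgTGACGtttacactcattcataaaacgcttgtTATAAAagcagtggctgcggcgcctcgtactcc
JUN, chr1:58784048-58784157, minus strand: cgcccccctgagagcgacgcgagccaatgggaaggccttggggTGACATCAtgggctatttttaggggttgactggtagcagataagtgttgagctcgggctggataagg
JUNB, chr19:12791376-12791485, plus strand: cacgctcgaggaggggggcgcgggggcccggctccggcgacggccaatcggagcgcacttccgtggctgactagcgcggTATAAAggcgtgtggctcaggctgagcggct
JUND, chr19:18281623-18281732, minus strand: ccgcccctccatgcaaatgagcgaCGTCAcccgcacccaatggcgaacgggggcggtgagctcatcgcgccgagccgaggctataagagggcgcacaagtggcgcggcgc
MAFF, chr22:38201884-38201993, plus strand: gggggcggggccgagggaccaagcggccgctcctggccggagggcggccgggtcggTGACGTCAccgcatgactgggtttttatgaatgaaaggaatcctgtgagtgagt
In *FOS* TGACG starts 64 bases before the transcription start and TATAAA 33 bases before it. In *JUN* TGACATCA starts 67 bases before the start. The TATAAA of *JUNB* lies 31 bases before the start, and its TGACG starts 137 bases before it, outside the printed stretch. *JUND* has its TGACGTCA farther out, from 200 bases before the start, and so outside the printed stretch. The capitals in its line are a separate TGACG on the other strand, 86 to 82 bases before the start. In *MAFF* TGACGTCA starts 54 bases before the start.

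Levels between genes were compared per kilobase of RefSeq span, as normalized reads (reads divided by the spike-in size factor) per kb in the control column, with exact 95% Poisson intervals that cover counting error only. *JUND* was highest with 251.6 (229.8 to 274.9), above 97.2% of the genes with a length. *JUNB* followed with 113.7 (98.81 to 130.1), *JUN* with 80.29 (70.89 to 90.58), *FOSL1* with 52.81 (48.05 to 57.9) and *MAFK* with 43.58 (39.99 to 47.4). *ATF3* had 22.77 (21.54 to 24.06) over its whole span, most of which lies outside the canonical transcript. At the low end stood *FOSL2* with 16.64 (15.07 to 18.33), *FOS* with 14.84 (11.05 to 19.52) and *MAFF* with 12.49 (10.74 to 14.43). The interval of *FOS* overlapped those of *FOSL2* and *MAFF*, which did not overlap each other. The intervals of the other neighbours in this order did not overlap. The JUN family thus held the top of the order in control cells. *FOS*, the classical partner of JUN, was transcribed at a level above that of only 18.4% of the genes with a length. The authors had limited the table to expressed genes. In dIWS1 column 1 *FOS* had 15.68 per kb and *FOSL2* 12.51, and in column 2 *FOS* had 23.65 and *FOSL2* 12.09, so *FOS* stood above *FOSL2* in both dIWS1 columns. These *FOS* levels rest on 53 and 74 reads. Intervals were not computed for levels in the dIWS1 columns, and the order was not tested.

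**Figure D1:**
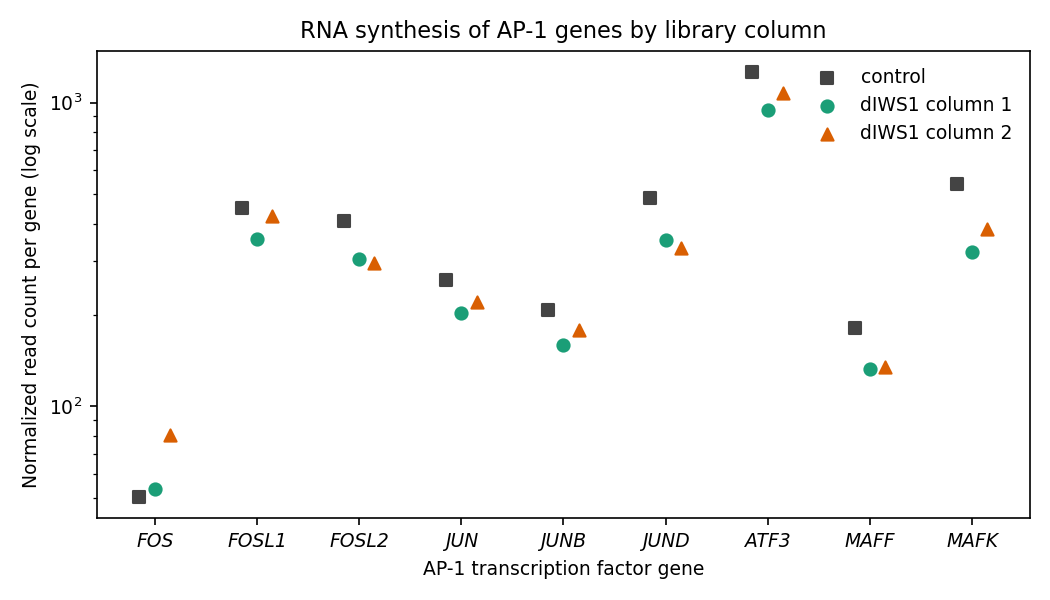
Normalized read count per gene (log axis) for the 9 AP-1 genes in the control column (squares), dIWS1 column 1 (circles) and dIWS1 column 2 (triangles), scaled by spike-ins. The control lies above both dIWS1 columns for 8 genes, while for *FOS* it lies below both, at 50.52 beside 53.36 and 80.48.

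The main question was how RNA synthesis of these genes changed after 1 h without IWS1. With the spike-in scaling of the study, 5 of 9 members fell (*FOSL2*, *JUND*, *ATF3*, *MAFF* and *MAFK*), 4 did not pass the test (*FOS*, *FOSL1*, *JUN* and *JUNB*), and 0 rose. A gene counted as changed when limma-voom gave an adjusted p below 0.05, adjusted over the 10133 genes with 1 solution for their reads. By this rule 64.5% of all genes were called lower and 0.109% higher, so a fall was the common outcome in this table and the members' share is near that background. At an unadjusted p under 0.05, 6 members were lower and 0 were higher, beside 6970 and 19 of the 10133 genes. With limma-trend 4 members were called lower and 0 higher, beside 5586 and 26 of all genes. Both dIWS1 columns lay below the control for 8 of 9 members, as for 92.1% of all genes. Over all genes the median log2 ratio was -0.47 in dIWS1 column 1 and -0.37 in column 2. Part of a member's difference between the columns is therefore shared by the table. The median log2 ratio of the 9 members was -0.32, that of all genes -0.43. These directions rest on the spike-ins: scaled by total reads or by the median of ratios, which bring the median of all genes to 0.016 and -0.003, 0 members were called lower and the members' median was 0.12 and 0.10. The study treated a fixed number of cells per replicate and added the spike-ins to the lysates. In bulk RNA, fewer cells at lysis and less RNA per cell still cannot be told apart.

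Within the FOS family the members differed. *FOS*, the founding member, had 51 control reads, beside 53 and 74 reads in dIWS1 columns 1 and 2. Both dIWS1 columns were above the control, column 2 by more than counting error and column 1 by less, with log2 ratios over the control of 0.08 (95% counting interval -0.50 to 0.66) and 0.67 (0.14 to 1.22). The log2 ratio from limma-voom was 0.36 ± 0.25 (SE) with an adjusted p of 0.189, which does not pass the test. The dIWS1 columns themselves differed by 0.59 on the log2 scale (0.07 to 1.13), so 1 column supplied most of the estimate. The estimate of *FOS* was nevertheless above that of 99.5% of genes in the table.

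*FOSL1* encodes FRA1, which like FRA2 lacks the strong activation domain of FOS. It had 453, 353 and 388 reads in the control and the dIWS1 columns. The drop was larger in column 1 (log2 ratio -0.34) than in column 2 (-0.09), and the estimate of -0.21 ± 0.13 did not pass the test (limma-voom adjusted p = 0.133). *FOSL2*, which encodes FRA2, had 411, 304 and 272 reads, with both dIWS1 columns well below the control. It fell by 26.0%, a log2 ratio of -0.43 ± 0.13 (limma-voom adjusted p = 0.00304), and its dIWS1 columns differed by no more than counting error (-0.05, from -0.29 to 0.19).

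The JUN family, the partners that every FOS protein needs, lay lower in both dIWS1 columns for all 3 members under spike-in scaling; scaled by total reads or by the median of ratios, *JUN* and *JUNB* lay above 0. *JUN* had 264, 202 and 203 reads, and *JUNB*, which often acts against JUN in growth control, had 210, 158 and 164. Their log2 ratios were alike, -0.30 ± 0.15 for *JUN* (limma-voom adjusted p = 0.0588) and -0.31 ± 0.16 for *JUNB* (adjusted p = 0.076), and neither passed the test. Entering the control column 2 times, as in the deposited means, brought them to 0.0113 and 0.021, which treats copied values as a replicate. *JUND*, the JUN gene that is expressed most steadily in resting cells and the member with the highest level here, had 490, 351 and 305 reads. Both dIWS1 columns were far below the control, and *JUND* fell by 29.4% (log2 ratio -0.50 ± 0.13, limma-voom adjusted p = 0.000488).

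*ATF3*, a stress-induced bZIP factor that often represses, had the most reads of any member, 1273 in the control, 940 in dIWS1 column 1 and 987 in column 2. It fell (log2 ratio -0.32 ± 0.14, limma-voom adjusted p = 0.0303), and limma-trend gave an adjusted p of 0.0738. The fall of *ATF3* was smaller in column 2 (-0.23) than in column 1 (-0.41), as was that of the median gene. The small MAF gene *MAFF* had 183, 132 and 124 reads, nearly the same normalized count in both dIWS1 columns (132.9 and 134.9, beside 181.3 in the control). It fell by 26.1% (-0.44 ± 0.17, limma-voom adjusted p = 0.0171). *MAFK*, in erythroid cells a partner of NFE2, had 543, 321 and 354 reads and the lowest log2 ratio of the 9 members. It fell by 34.5% (-0.61 ± 0.13, limma-voom adjusted p = 2.22e-05), in column 1 by 0.73 and in column 2 by 0.48 on the log2 scale.

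**Figure D2:**
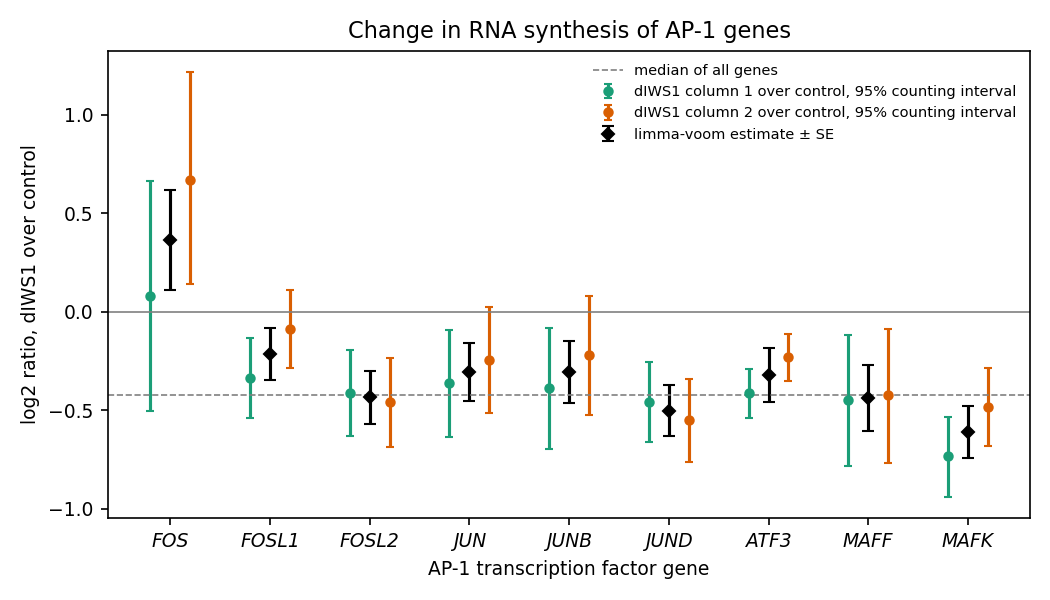
Log2 ratio of dIWS1 over control for the 9 AP-1 genes, spike-in scaled. Circles with bars are dIWS1 column 1 (left) and column 2 (right) with 95% counting intervals, diamonds are limma-voom estimates ± SE, and the dashed line is the median of all genes (-0.43). *FOS* stands above 0, and *MAFK* is lowest at -0.61.

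Because most genes fell, each member was also compared with the median gene, by subtracting the median log2 ratio of all genes before the test. The same value was subtracted for both dIWS1 columns, so each SE equals that under spike-in scaling. On this scale 1 of 9 members, *FOS*, was called above the median gene and 0 were called below it, beside 3.01% and 4.78% of all genes. At an unadjusted p under 0.05, 1 member was above and 0 were below, beside 1021 above and 1186 below of all 10133 genes. With limma-trend 1 member was called above and 0 below, beside 110 and 304 of all genes. *FOS* lay 0.79 ± 0.25 above the median gene (limma-voom adjusted p = 0.0306), a relative fold of 1.73, with 0.55 in dIWS1 column 1 and 1.04 in column 2. This call is weak: the adjusted p was 0.0735 when scaled by total reads, 0.146 when scaled by the median of ratios and 0.0843 when the control column was entered 2 times, and the range over 5 alternatives was 0.0125 to 0.146. The control column holds only 51 reads of this gene. Among 429 genes with a mean between 40 and 80 normalized counts, 2 others had a log2 ratio at or above that of *FOS*.

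The other members lay close to the median gene. *FOSL1* was 0.21 above it, *JUN* and *JUNB* 0.12 and *ATF3* 0.10, while *FOSL2* and *MAFF* were at -0.01, *JUND* at -0.08 and *MAFK* at -0.18, and none of these passed the test (limma-voom adjusted p from 0.34 to 0.979). In dIWS1 columns 1 and 2 alike 5 members lay above the median gene of the column (*FOS*, *FOSL1*, *JUN*, *JUNB* and *ATF3*), beside 41.9% of all genes.

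**Figure D3:**
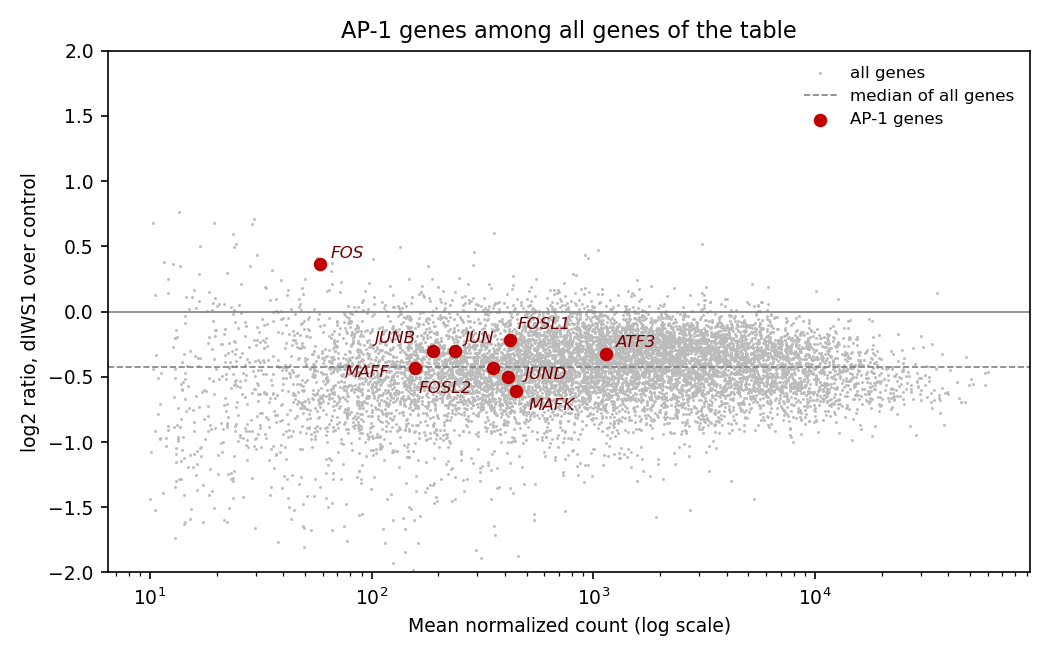
Log2 ratio of dIWS1 over control (limma-voom, spike-in scaled) against the mean normalized count (log axis), with 9905 genes in grey and the 9 AP-1 genes in red. The 228 genes with a mean under 10 or a log2 ratio beyond 2 in either direction are not drawn. *FOS*, at a mean of 58.7, stands apart above 0, and the other 8 lie around the dashed median of all genes.

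The balance among the members differed between the columns. Of the summed normalized reads of the 9 genes, *FOS* made up 1.32% in the control, beside 1.88% and 2.58% in dIWS1 columns 1 and 2. *MAFK* went from 14% to 11.4% and 12.3%, while *ATF3*, the largest, held 32.8%, 33.4% and 34.4%. Summed by family, the log2 ratios in dIWS1 columns 1 and 2 were -0.34 and -0.18 for the FOS family, -0.42 and -0.39 for the JUN family, and -0.50 and -0.31 for *ATF3* with the small MAF genes. These shares are descriptions with no test.

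Members were next set beside genes of like length, in the length classes of the study, and of like base composition, since the change varies with both in this table. The 2453 genes under 10 kb had a median log2 ratio of -0.49, and the 5 members of this class (*FOS*, *FOSL1*, *JUN*, *JUNB* and *JUND*) had a median of -0.30. The 3 members of the next longer class (*FOSL2*, *MAFF* and *MAFK*) had a median of -0.44, beside -0.39 over 2521 genes, and *ATF3* had -0.32, beside -0.34 over the 2661 genes of the class that ends at 65 kb. The length class and GC content of *ATF3* describe its whole RefSeq span, most of which lies outside the canonical transcript. The GC content of the members ran from 43.2% for *ATF3*, in the middle of the genes of the table, to 69.9% for *JUND*. All genes were split into 10 equal bins by GC content, and the bin highest in G and C had a median log2 ratio of -0.59, the next one -0.53. Against genes of the same length class and GC bin, 8 of 9 members lay above the median. *FOS* was above 99.1% of 467 such genes, *FOSL1* above 89.3%, *JUNB* above 84.1% of 681 and *JUN* above 81.8%. *MAFF* (70.0%), *JUND* (63.1%), *FOSL2* (61.9%) and *ATF3* (56.5%) were nearer the middle, and *MAFK* lay lower, above 38.9% of 247 genes. The single-exon JUN genes had a median of -0.30 and the 6 members with introns -0.38, with overlapping ranges.

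**Figure D4:**
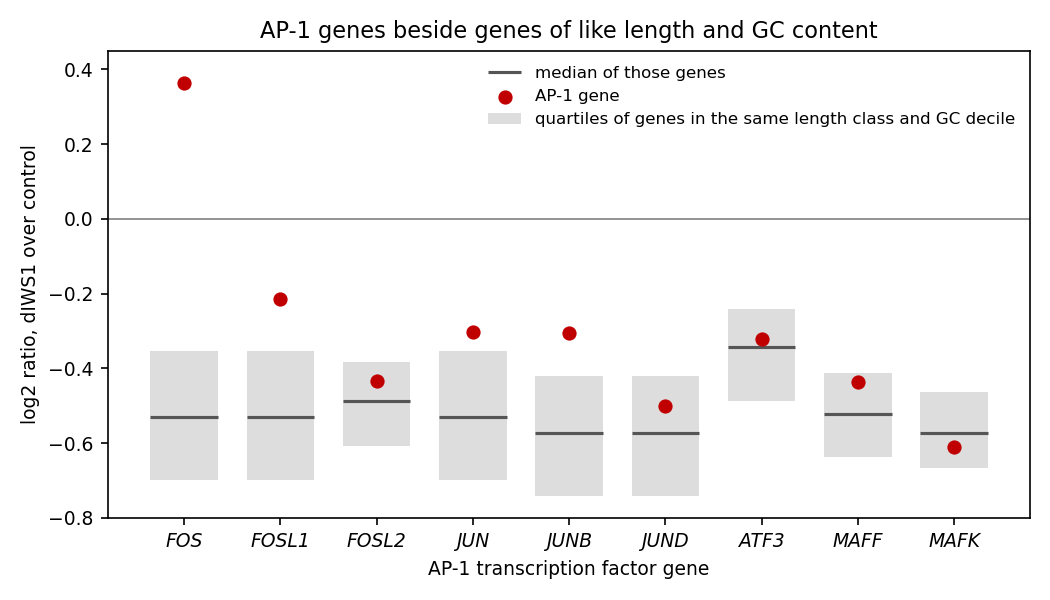
Log2 ratio of dIWS1 over control (spike-in scaled) for each AP-1 gene (red points) beside the quartiles (grey bars) and the median (dark lines) of genes in the same length class and GC bin. *FOS*, *FOSL1*, *JUN* and *JUNB* lie above the upper quartile of their class, and the other 5 lie within the quartiles.

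The genes around AP-1 were then examined in 4 lists. Of 24 other bZIP genes that dimerize with or compete with AP-1 proteins, 15 were in the table, of which 10 were called lower and 0 higher (unadjusted p under 0.05: 11 and 0), with a median log2 ratio of -0.46. Of all genes 64.5% were called lower. At an unadjusted p under 0.05, 6970 of the 10133 genes were lower and 19 higher, the background for all 4 lists. *CREB1*, whose protein binds cAMP response elements, had 4352 reads in the control and 2322 and 2265 in the dIWS1 columns, and was lowest at -0.84 ± 0.15 (limma-voom adjusted p = 3e-07). *ATF7*, a partner of JUN proteins, fell by 0.65 and *BACH2*, a repressor that pairs with small MAFs, by 0.62 on the log2 scale. At the other end, *NFE2*, the erythroid partner of MAFK, had 4659, 4244 and 4127 reads and a log2 ratio of -0.08 ± 0.15 (adjusted p = 0.649). Its relative *NFE2L3* was at -0.12 and *ATF1* at -0.21, and neither passed the test. So *NFE2* and *MAFK*, whose proteins form a dimer, stood at opposite ends of their lists, a difference that was not tested.

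Of 31 genes that drive AP-1 transcription or phosphorylate its proteins, 26 were in the table, of which 18 were called lower and 0 higher (unadjusted: 19 and 0), beside 64.5% of all genes called lower, with a median of -0.40. The lowest with a mean of at least 100 were *MRTFB* (listed as *MKL2*) at -0.67 and *MRTFA* (listed as *MKL1*) at -0.62, coactivators of serum response factor, and *ELK1*, its ternary complex factor, at -0.62, and all 3 were called. *ELK3*, another ternary complex factor, at -0.15 and the kinase gene *MAP3K1* at -0.22 did not pass the test.

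Of 11 genes for turnover and co-regulation of AP-1 proteins, 7 were in the table, of which 4 were called lower and 0 higher (unadjusted: 4 and 0), beside the same 64.5%, with a median of -0.50. *DET1*, part of a ubiquitin ligase that acts on JUN, had 939, 462 and 406 reads and a log2 ratio of -1.04 ± 0.13 (limma-voom adjusted p = 3.88e-13), and it was the gene of this list called below the median gene (-0.61, adjusted p = 0.000247), as were 4.78% of all genes. *NCOR1*, a corepressor, had -0.66 and *CREBBP*, a coactivator acetyltransferase, -0.60, both called. *TRIB1* at -0.17, *HDAC3* at -0.23 and *COPS5* at -0.26 did not pass the test.

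Of 29 textbook target genes of AP-1, 19 were in the table, of which 10 were called lower and 0 higher (unadjusted: 10 and 0), beside 64.5% of all genes, with a median of -0.38. *VEGFA* at -0.50, *DNMT1* at -0.50 and *PLAUR* at -0.49 were the lowest among those with a mean of at least 100, all called. *NQO1*, a detoxification enzyme gene, had 352, 336 and 342 reads, a log2 ratio of 0.02 ± 0.13 and the list's call above the median gene (0.45, limma-voom adjusted p = 0.0178), which 3.01% of all genes had. *EZR* at -0.06 and *CDKN1A* at -0.07 did not pass the test. Across the 4 lists the called genes were lower, as were most genes of the table, under spike-in scaling.

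**Figure D5:**
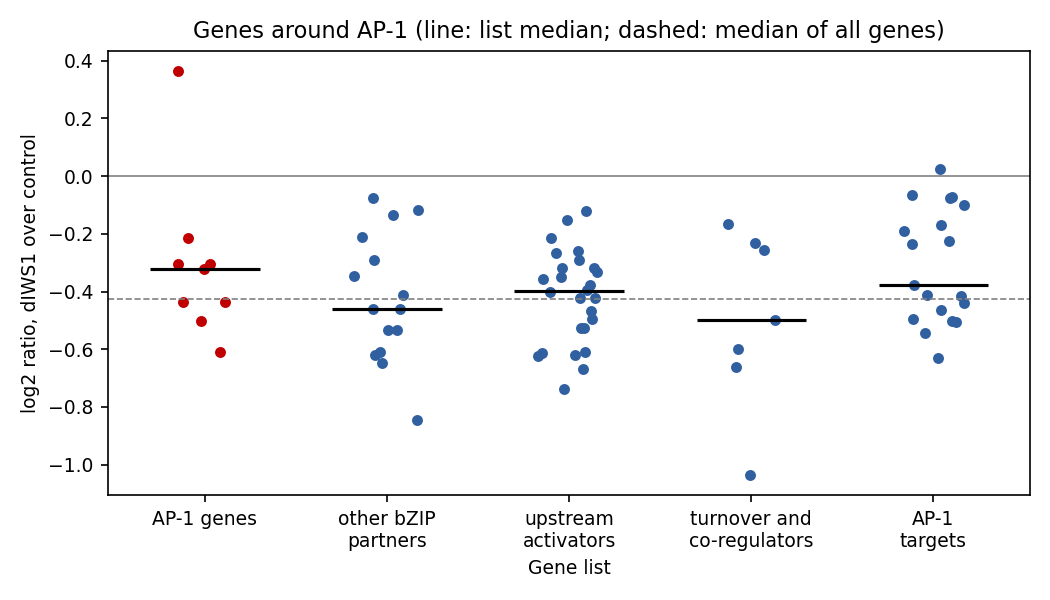
Log2 ratio of dIWS1 over control (limma-voom, spike-in scaled) for each gene of 5 lists, the AP-1 genes in red and the surrounding lists in blue, with black lines at list medians and the dashed line at the median of all genes (-0.43). List medians lie between -0.50 and -0.32, and *DET1* is the lowest point at -1.04.

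With 1 control column, the fit took the spread from the 2 dIWS1 columns, pooled over all genes, and assumed that the control varies like them. The p-values therefore carry no information on how much control libraries differ from each other.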

How the data were processed

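The authors aligned the TT-seq reads with STAR 2.6.0 to GRCh38 with added spike-in sequences, counted unique read pairs per RefSeq gene by strand, removed overlapping genes and genes under a threshold of reads per kilobase, and fitted DESeq2 with spike-in size factors. The deposited table holds a signal per gene, the mean of counts divided by size factors. Its log2 fold change, standard error, Wald statistic, p-value and adjusted p-value are the authors' comparison, and their values are not reported here. The deposited log2 fold change served only to tell the columns apart and to bound the search for means over 2000.

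The analysis plan allowed for several kinds of file, and for a table of means it used whole reads recovered from them. The smallest steps between means showed 3 columns, of which the control enters 2 of 4 times. Of 10136 genes with a mean above 0, 10133 could be split in 1 way only, and the 3 with several ways were dropped. Size factors were 1.0096 (control), 0.9932 and 0.9194, and 0 per-sample columns were set aside. The reads were tested with limma-voom (limma 3.58.1, R 4.3.3), two-sided with Benjamini-Hochberg adjustment over all genes, with the control counted once. For the comparison with the median gene, the same median coefficient was subtracted for both dIWS1 columns before eBayes. The columns were not centred separately, so the difference of 0.102 between their medians stayed in the spread. *ATF3* thus kept an SE of 0.136, as under spike-in scaling, beside 0.065 when scaled by the median of ratios. The recovery and the test were checked on simulated data. The simulation of the test changed few genes, up and down alike, with no shared fall and no shift between the dIWS1 columns. It therefore does not check the test under the fall seen here. Single-column ratios used a pseudocount of 0.5. Counting intervals are 95% intervals and cover counting error only, since PCR copies are not independent molecules. Lengths, GC content and promoters came from RefSeq GRCh38.p14, and overlaps from GENCODE. By symbol 9353 genes matched, by gene number 169, by synonym 576 and 49 did not match. Other software was Python 3.11.15, pandas 2.3.3, scipy 1.17.1 and matplotlib 3.10.9.

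The text names all members, *IWS1*, and of each list the genes called above the median gene and the 3 lowest and 3 highest with a mean of at least 100. A gene that this rule takes is not reported here. *DET1* is also named for its call below the median gene, and *LYZ* after its values were seen. Members, lists and tests were chosen with earlier results of these data known. Alternatives were other scalings, limma-trend, the control entered 2 times, a pseudocount of 1, minimum means of 10 and 100, thresholds of 0.01 and 0.1, a minimum change of 0.5, and each dIWS1 column alone.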

Additional observations from a re-analysis of the deposited data

How the results depend on the processing

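Single-gene results kept their direction and their side of the threshold in 84 of the 106 repeats with a test. The 54 repeats without one (a pseudocount of 1 and each dIWS1 column alone) kept their direction except in 3: without dIWS1 column 2, *FOSL2*, *JUND* and *MAFF* lay at 0.06, 0.02 and 0.03 relative to the median gene. The directions depend on the scaling, because total reads and the median of ratios remove the fall shared by most genes. Without the median gene subtracted, only *FOS* kept its direction and its side of the threshold under these scalings. Relative to the median gene these scalings largely cancel, so those repeats could hardly change direction. Scaled by total reads, the log2 ratios were 0.23 for *FOSL1*, 0.006 for *FOSL2*, 0.14 for *JUN* and *JUNB*, 0.12 for *ATF3* and 0.006 for *MAFF*. Scaled by the median of ratios they were 0.21, 0.12, 0.12 and 0.10 for *FOSL1*, *JUN*, *JUNB* and *ATF3*. The members' median was then 0.12 (total reads) and 0.10 (median of ratios), and with each dIWS1 column alone it was -0.41 and -0.24. Members called lower numbered 0 and 0 under these scalings, 3 at an adjusted p under 0.01 and 2 with a change of at least 0.5, and at an unadjusted p under 0.05 limma-voom gave 0 and 0 under these scalings. The members called above the median gene numbered 0 under total reads, the median of ratios, the control entered 2 times, an adjusted p under 0.01, and a mean of at least 100, which leaves *FOS* out. Of all genes, 1142 were called lower and 1555 higher with total reads (1726 and 2342 at an unadjusted p under 0.05). With the median of ratios 0 and 0 were called (1734 and 1812 at an unadjusted p under 0.05). A change of at least 0.5 left 3754 lower and 4 higher, and an adjusted p under 0.01 left 4917 lower. Higher calls numbered 26 with limma-trend, 61 with the control entered 2 times, 6 at 0.01 and 23 at 0.1. Relative to the median gene, 1245 were lower and 1412 higher with total reads, 0 and 0 with the median of ratios (1691 and 1852 unadjusted), 304 and 110 with limma-trend, 1584 and 1133 with the control entered 2 times, and 258 and 106 at 0.01. There were 480 higher at 0.1 and 109 higher with a change of at least 0.5. The fits had 10133 total degrees of freedom in the main setting and with limma-trend. They had 8.6 scaled by total reads, 4.17 by the median of ratios and 3.6 with the control entered 2 times. The cause of the differences between tools was not tested. No paired analysis was possible because the dIWS1 columns carry no replicate numbers and the control is 1 column. The depth limits *FOS* most, with 51 control reads, and its dIWS1 columns alone gave log2 ratios of 0.08 and 0.67.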
